A study of Mus musculus with 6 samples.

Results

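The genes described here are the writers and erasers of DNA methylation in mouse embryonic stem cells, in a series made to find the mRNAs bound by Brf1 (gene Zfp36l1) and Brf2 (gene Zfp36l2), RNA-binding proteins that promote decay of mRNAs with AU-rich elements. The members were chosen by gene symbol from a list of 10, without a rule on their levels but with earlier results of these data known. A row was found in the deposited table for 8 of the 10, among 18312 genes in all: Dnmt1, Dnmt3a, Dnmt3b, Dnmt3l, Tet1, Tet2, Tet3 and Tdg. Uhrf1 and Uhrf2 were found neither under their symbols nor under a RefSeq synonym, and are not analysed here.

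The labels describe 6 libraries in 3 groups of 2: RNA precipitated with an antibody that recognises both Brf1 and Brf2, RNA precipitated with non-specific rabbit IgG, and total RNA. All come from wild-type E14 cells, an embryonic stem cell line with a 129/Ola genetic background, grown in 15% serum with 1000 U/ml of the cytokine LIF. The precipitations were made from cytoplasmic extract, and no second line was used. The table holds 1 profile of 22625281 counts, its columns name no library, and it was assigned to no group. No comparison between precipitated, control and total RNA was therefore made, there are no replicates, and every interval covers counting error only. A level below is a level in this profile, which may be precipitated RNA, and is neither a measure of binding nor, with certainty, of expression in the cells. All 8 embryonic stem cell markers looked for had at least 40.6 FPKM, with Pou5f1 the highest at 605. Of 7 fibroblast markers 1 had at least 1 FPKM, Thy1 at 3.74, and Postn had no count. Of 5 measured primitive endoderm markers 1 reached 1 FPKM (Dab2, 3.05), of 3 primed epiblast markers all did (median 12.4), and of 3 germ cell markers 2 did.

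Methylation of cytosine in CpG is copied onto the new strand at replication by Dnmt1, which Uhrf1 brings to hemimethylated sites, and it is placed on unmethylated DNA by Dnmt3a and Dnmt3b, which the catalytically inactive Dnmt3l assists. Tet1, Tet2 and Tet3 oxidise methylcytosine, and the glycosylase Tdg removes the more oxidised bases, which base excision repair then replaces with cytosine. Embryonic stem cells grown in serum are known for carrying both the de novo and the Tet enzymes at once.

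The transcripts fall into those with and those without TATTTAT, the core of the AU-rich element that ZFP36 proteins bind. Shown first are the sites in the 3′ untranslated regions, because Brf1 and Brf2, the proteins the study precipitated, are known to act on AU-rich elements. The motif was searched on the transcript strand, counting overlapping matches, in the GENCODE M21 (GRCm38) coding transcript nearest in length to each table model. It was present in 5 of the 8 members. Tet3 had 4 sites, Tet1 had 3, Tet2 had 2, and Dnmt3a and Tdg had 1 each. Dnmt1, Dnmt3b and Dnmt3l had none. Of the 16488 genes with a region of at least 50 nt, 24.8% held the motif. Below, 5 of the 11 sites are given 5′ to 3′ with the motif in capitals: the only site of Dnmt3a and of Tdg, the Tet1 site that lies within the longer nonamer TTATTTATT, and the last site of Tet2 and of Tet3.
Dnmt3a (chromosome 12, plus strand): ggttgcttctcTATTTATtgacagtaata
Tdg (chromosome 10, plus strand): aacagtcggaaTATTTATagttgattctt
Tet1 (chromosome 10, minus strand): ggttaataattTATTTATtccttttctac
Tet2 (chromosome 3, minus strand): aataaaatttaTATTTATttaatgcactc
Tet3 (chromosome 6, minus strand): aataaattttaTATTTATtttttgcactc

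The last sites of Tet2 and Tet3 ended 11 and 14 bases before the end of the annotated transcript, and both windows also hold AATAAA, the usual polyadenylation signal. No other printed or unprinted window of the members held AATAAA, and Tet1 alone among them had the nonamer, which 6.52% of all genes with a region held. The other sites of Tet3 lay within the first 412 bases of its region. Long regions hold the motif more often, so each member is set beside genes whose region was within 20% of its own length. For Tet3, with 5669 nt, 68.6% of 430 such genes held it, and for Tet1, with 7962 nt, 81.8% of 143 did. For Dnmt3a, with 6696 nt, the share was 74.5% of 255 genes, for Tet2, with 3058 nt, 51.2% of 1491, and for Tdg, with 1604 nt, 34.2% of 2225. At the lengths of the Tet genes and Dnmt3a most regions thus hold a site, and at that of Tdg most do not. Among the members without a site, regions were 312 nt in Dnmt1 and 273 nt in Dnmt3l, lengths at which 8.55% and 7.05% of genes held the motif, and 1331 nt in Dnmt3b, at which 30.5% did. A match is a description of the letters and was not tested for binding.

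All 8 members had at least 1 FPKM (fragments scaled to length and to the total count, on the effective length that the authors' quantification assigned), as did 56.0% of all genes, and 7 had at least 5 FPKM, as did 38.3% of all genes. All 8 had at least 10 counts, as did 70.6% of all genes, and all 8 had at least 1 FPKM on the model length too, as did 58.2%. Their median was 37.1 FPKM, against 1.94 over all genes, and on the model length it was 57.8, against 2.58. Together they held 58821 counts, 0.260% of the total (Wilson 95% interval 0.258 to 0.262). The levels ran over a wide range, from Dnmt3b, above 97.2% of all genes, to Tet3, above 50.6% of them. In falling order the levels were Dnmt3b, Dnmt3l, Tdg, Dnmt1, Tet1, Dnmt3a, Tet2 and Tet3, and every neighbouring pair in that order differed beyond counting error. The closest pair was Dnmt3l over Tdg, with a ratio of 1.09 (95% interval 1.05 to 1.13).

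**Figure D1:**
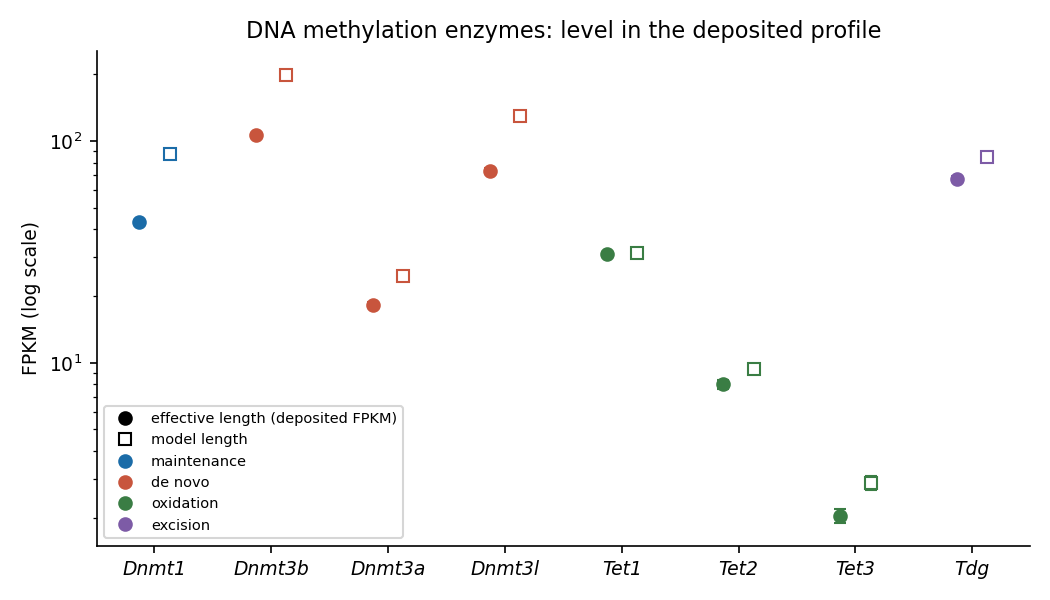
Level of each of the 8 enzymes in FPKM on a log axis, as deposited on the effective length (filled circles, bars are the authors' bounds) and recomputed on the model length (open squares, bars are exact Poisson 95% intervals), coloured by step of the methylation cycle. Dnmt3b is highest and Tet3 lowest on both lengths, and Tet1 is the member whose marks lie closest together.

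Among the de novo genes, the methyltransferase Dnmt3b had 106 FPKM (authors' bounds 105 to 108, 18984 counts), the 518th highest level in the table. The other de novo methyltransferase, Dnmt3a, had 18.3 FPKM (17.8 to 18.8, 5442 counts). Dnmt3b was thus 5.81 times as high as Dnmt3a (95% interval 5.64 to 5.99). The Dnmt3b model has 4207 nt and that of Dnmt3a 9735 nt. Dnmt3l, the cofactor without catalytic activity, had 73.4 FPKM (71.4 to 75.4, 5332 counts). Its level was 0.691 times that of Dnmt3b (0.670 to 0.712) and 4.02 times that of Dnmt3a (3.87 to 4.17). Dnmt3l and Dnmt3a had nearly equal counts, so their gap per length rests on both lengths. The effective length was 3209 nt for Dnmt3l, with a model of 1815 nt, and 13153 nt for Dnmt3a. Embryonic stem cells are known to use a short Dnmt3a isoform from an internal promoter. The table has a single Dnmt3a model, and the 8 annotated coding transcripts of Dnmt3a run from 501 to 9685 nt, so isoforms were not separated. All Dnmt3a counts, from whichever isoform, were scaled to the length of that long model. Reads from a shorter form would make the Dnmt3a level too low and the ratios over Dnmt3a too high. The share of each isoform was not tested.

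The maintenance methyltransferase Dnmt1 had 43.1 FPKM (42.3 to 43.99, 10371 counts). That was 0.346 times the summed level of Dnmt3a and Dnmt3b, 125 FPKM (95% interval of the ratio 0.339 to 0.355). Of the summed level of the 3 active methyltransferases, Dnmt3b made up 63.4%, Dnmt1 25.7% and Dnmt3a 10.9%. Dnmt1 took second place by counts among the members and the fourth by level. Its effective length in the table, 10624 nt, is 2.02 times its model length of 5251 nt. This was the highest such factor among the members. Over all genes the median was 1.27 and the 95th percentile 1.94, so the factor of Dnmt1 was high for the whole table too.

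The oxidation enzymes formed a graded series. Tet1 had 31.1 FPKM (30.4 to 31.7, 9905 counts), Tet2 had 7.99 FPKM (7.63 to 8.36, 1938 counts) and Tet3 had 2.04 FPKM (1.89 to 2.20, 707 counts). Tet1 was 3.89 times as high as Tet2 (3.70 to 4.08), and Tet2 was 3.91 times as high as Tet3 (3.59 to 4.27). Tet1 thus stood 15.2 times above Tet3 (14.1 to 16.4). Annotated coding transcripts run from 581 to 14369 nt for Tet1 and from 5944 to 10904 nt for Tet3. Each gene has a single model in the table, so isoforms were not separated here either, and their part in these ratios was not tested. Tet1 made up 75.6% of the summed Tet level, Tet2 19.4% and Tet3 4.97%. Tet3 stood close to the median gene of the table, while Tet1 was above 88.8% of all genes. Tdg, the glycosylase that acts after the Tet enzymes, had 67.6 FPKM (65.8 to 69.3, 6142 counts), 1.64 times the summed level of the 3 Tet genes (1.59 to 1.69).

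**Figure D2:**
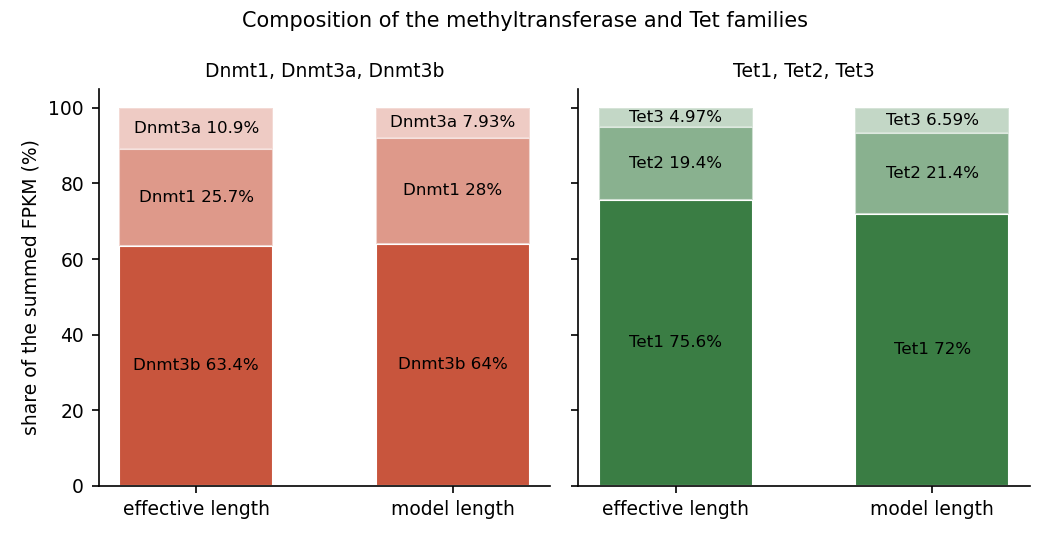
Share of each gene in the summed FPKM of its family in percent, for the active methyltransferases (left) and the Tet genes (right), on the effective and the model length. Dnmt3b and Tet1 hold the greater part of their families on both lengths, 63.4% and 75.6% on the effective length.

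Setting writers against oxidation enzymes, the summed level of Dnmt1, Dnmt3a and Dnmt3b was 168 FPKM and that of Tet1, Tet2 and Tet3 was 41.1 FPKM, a ratio of 4.08 (3.996 to 4.16). On the model length Dnmt3b had 199 FPKM, Dnmt3l 130, Dnmt1 87.3, Tdg 84.4, Tet1 31.3, Dnmt3a 24.7, Tet2 9.33 and Tet3 2.87. Each was thus higher than on the effective length, Tet1 by the least. On the model length the sums were 311 and 43.5 FPKM and the ratio was 7.16 (7.01 to 7.31). The 2 lengths also moved single pairs by over 1.5 times. Dnmt1 was 1.39 times as high as Tet1 on the effective length (1.35 to 1.43) and 2.79 times as high on the model length (2.71 to 2.87). Tdg was 1.57 times as high as Dnmt1 on the effective length (1.52 to 1.62) and 0.966 times as high on the model length (0.936 to 0.997), the only pair of neighbours whose order changed.

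**Figure D3:**
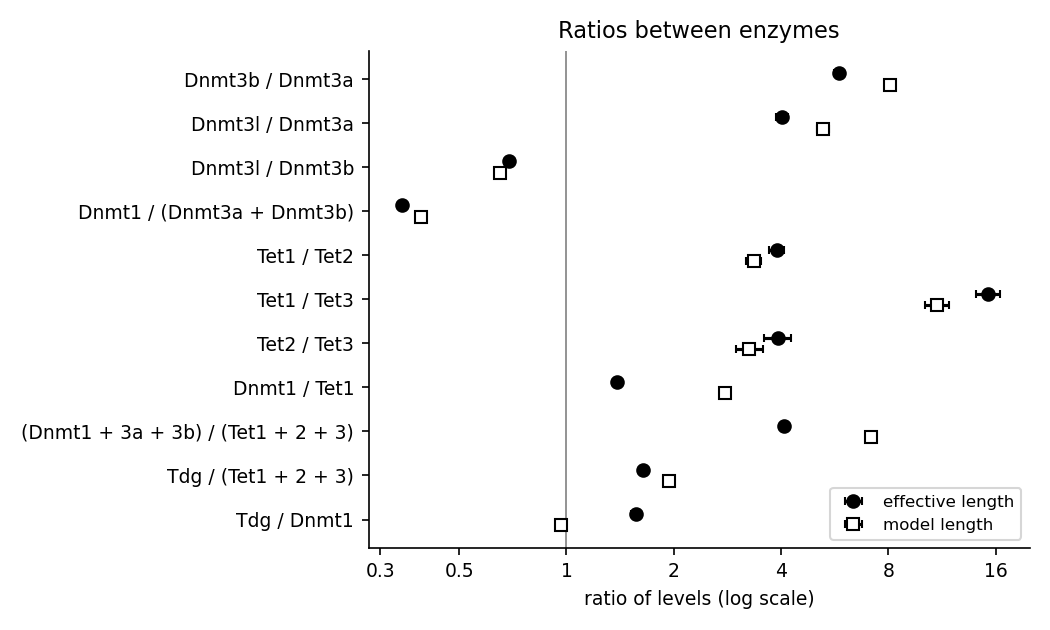
Ratios of levels between enzymes on a log axis, on the effective length (filled circles) and the model length (open squares), with 95% intervals for counting error and a grey line at equal levels. Tdg over Dnmt1 crosses that line, and the ratios of Dnmt1 and of the summed methyltransferases to Tet genes move furthest to the right on the model length.

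By construction, each level shifts by exactly the factor between effective and model length of its gene. This factor was 2.02 for Dnmt1, 1.88 for Dnmt3b and 1.77 for Dnmt3l. It was lower for Tet3 (1.40), Dnmt3a (1.35), Tdg (1.25), Tet2 (1.17) and Tet1 (1.01). The base composition of the transcripts ran partly alongside it. GC content was 53.1% in Dnmt1, 53.0% in Dnmt3b and 53.3% in Dnmt3l, and the lowest values were 43.6% in Tet1 and 45.4% in Tet2. Tdg had 48.3%. Tet3 departs from that order, with 53.4% GC and a factor of 1.40. Dnmt3a, with 51.9% GC, was close to Dnmt3b in GC but had a factor of only 1.35. Across 15139 genes the factor rose with GC (Spearman rho 0.684), a description over genes of 1 table. The part of base composition in the ratios above was not tested.

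The partners of the methyltransferases and of Uhrf1 had the highest median of the other lists, 53.6 FPKM (81.7 on the model length). All 21 measured of 22 listed had at least 5 FPKM, as did 38.3% of all genes. Pcna, the replication clamp that binds Dnmt1, was highest at 329 FPKM, and Usp7, a deubiquitinase that binds Dnmt1 and Uhrf1, had 85.8. Trim28, the co-repressor that joins KRAB zinc finger proteins to silencing enzymes, had 251, and the histone deacetylase Hdac1 had 154. Cdca7, a partner of the remodeller Hells, had 62.3. Enzymes of histone H3K9 methylation were lower, with Ehmt2 at 31.2, Setdb1 at 21.3 and Suv39h1 at 13.1, and the lowest of the list was the zinc finger gene Zbtb24 at 5.01. On the model length the lowest was Rb1, at 5.62. The lists described here and below share some genes. Lig1 is also listed under base excision repair, and Trim28 under imprint protection. Mbd4 is listed both under base excision repair and under readers of methylated CpG.

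Genes that supply the methyl donor ranged from abundant to nearly absent. Mat2a, the S-adenosylmethionine synthetase of non-hepatic cells, had 162 FPKM, and Ahcy, which clears the product S-adenosylhomocysteine, had 156. On the model length Ahcy, at 266, was above Mat2a, at 174. The liver enzymes Mat1a and Bhmt had 0.210 and 0.144 FPKM, from 21 and 9 counts. Of 14 listed genes 13 were measured, 11 had at least 1 FPKM (as did 56.0% of all genes), and the median was 17.0.

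Of 18 listed base excision repair genes 17 were measured (median 8.89). Each of these reached 1 FPKM, as did 56.0% of all genes. The steps after a glycosylase included the endonuclease Apex1 at 108 FPKM, the strand break sensor Parp1 at 95.3 and the ligase Lig1 at 53.6. On the model length Parp1, at 189, was above Apex1, at 133. The other glycosylases were each below Tdg at 67.6. Ung, which removes uracil, had 20.01 FPKM, Mbd4, which removes thymine at methylated CpG, had 10.99, Smug1 had 3.71, and Neil1 had 2.70, the lowest of the list on the effective length, while on the model length Neil3 was the lowest at 3.53.

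Readers of methylated CpG were lower. Of 10 listed, 9 were measured, 7 had at least 1 FPKM (as did 56.0% of all genes), and the median was 4.61. Mbd3, a subunit of the NuRD complex that binds methylated CpG poorly in mammals, was highest at 45.0 FPKM. Zbtb33 (Kaiso) had 14.1 FPKM, Mbd5 had 0.981 and Zbtb4 had 0.408.

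Among partners and regulators of the Tet enzymes, 19 of 21 listed were measured and 17 reached 1 FPKM, as did 56.0% of all genes. The median was 20.9 (39.3 on the model length). The pluripotency factor Nanog, which binds Tet1, was highest at 187 FPKM. Ogt, the O-GlcNAc transferase that binds Tet proteins, had 40.9 FPKM and the co-repressor scaffold Sin3a had 37.2. Idh1 and Idh2, which make the Tet co-substrate 2-oxoglutarate, had 43.4 and 20.9. Prdm14, which lowers de novo methyltransferase expression in naive cells, had 2.00 FPKM, and Cxxc4, the lowest of the list, had 0.239 from 26 counts. Of the 11 genes listed as imprint protection factors (median 26.1), 10 reached 1 FPKM, as did 56.0% of all genes. Among these 10 were Zfp57 at 38.4, which keeps methylation at imprinted regions, and Dppa3 at 20.9, while Nlrp2 had 0.0212 from 2 counts. Of the related methyltransferases 3 of 5 were measured. The tRNA enzyme Trdmt1, formerly called Dnmt2, had 5.89 FPKM, N6amt1 had 10.9, and the RNA methyltransferase Nsun2 had 102.

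Germline genes listed as silenced by promoter methylation were the lowest group, with a median of 1.13 FPKM over 20 measured of 22. At least 1 FPKM was seen for 11 of these 20 and at least 5 FPKM for 5, a share close to or below that of all genes given above. The synaptonemal complex gene Sycp3 was highest at 37.0 FPKM from 769 counts. The germ cell helicase Ddx4 had 9.40, Mael 8.93, Tex19.1 8.93, Hormad1 4.21 and Dazl 2.72. Asz1 had 0.100 FPKM from 4 counts and Brdt 0.294 from 39. Rpl10l had 6.26 FPKM, which is uncertain because it is a near copy of Rpl10.

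**Figure D4:**
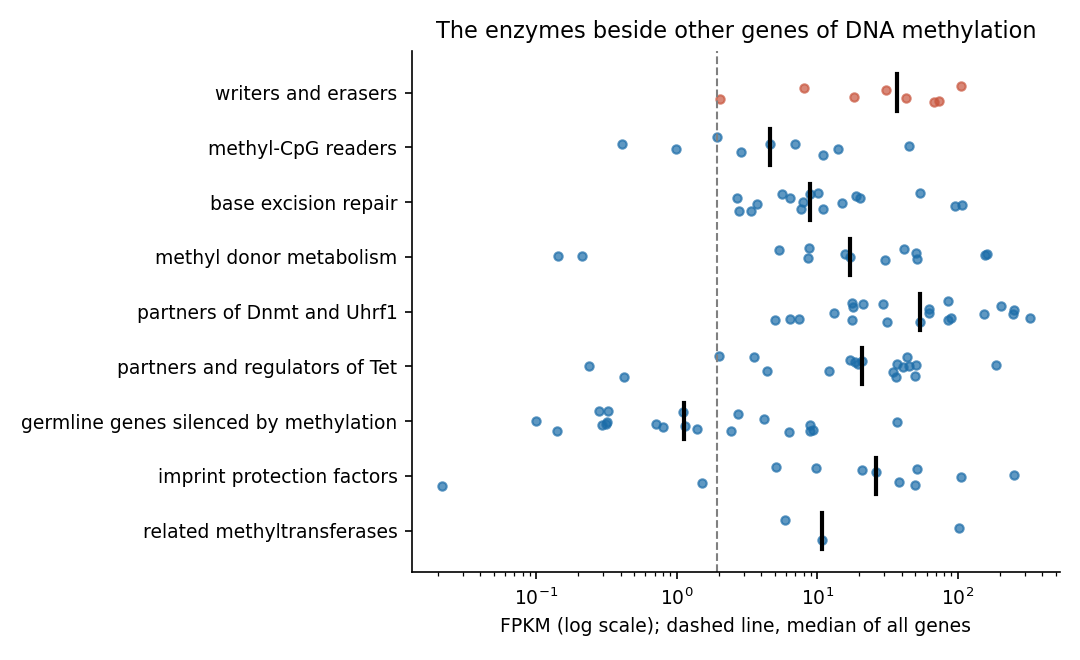
FPKM on a log axis of each measured gene, with the writers and erasers in the top row and the 8 other gene lists below; black bars are list medians and the dashed line is the median of all genes, 1.94 FPKM. The partners of Dnmt and Uhrf1 have the highest median, 53.6 FPKM, and the germline genes the lowest, 1.13 FPKM. The lists share some genes.

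The antibody's own targets had transcripts at a level like that of the middle members. Zfp36l1 had 42.7 FPKM and Zfp36l2 had 22.2, which sets Zfp36l1 within the bounds of Dnmt1, and Zfp36l2 between Tet1 and Dnmt3a. On the model length Zfp36l1 had 40.7 FPKM, below the 87.3 of Dnmt1. GENCODE names processed pseudogenes of Dnmt3a, Dnmt3l and Tdg. Since the unique count of every gene equals its total count, reads shared with such copies leave no trace in the table.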

How the data were processed

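The submitters' processing notes name the mm9 build and the tools eXpress 1.1.1, Bowtie 1.1.2 and CASAVA 1.8.2, without roles or settings. Per the file headers, raw counts (total and unique) and estimated counts per gene model were deposited without normalization. FPKM was deposited by the authors with bounds, per the file headers, and was checked against counts, effective lengths and the total. The column of effective counts and the summing row with no gene name were not used.

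No edgeR test or other test between groups was run, because no column names a library. Ratios between 2 genes carry exact conditional binomial 95% intervals from the counts. Ratios of sums carry intervals on the log scale with Poisson variance, a departure from the plan, because sums over unequal lengths have no exact form. Coverage of both was checked on Poisson counts simulated at the observed values, a setting that holds counting error only and cannot show other error. Transcripts came from GENCODE M21, whose GRCm38 coordinates cannot be set beside mm9 and are left out. Of the table's symbols 18077 symbols (98.7%) matched, and 15139 lay within 10% of the model length. Strand handling is not stated, so overlapping genes cannot be told apart.

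The members and lists were chosen with earlier results of these data known. Named genes are the members, genes of the 8 lists (at least the highest and lowest of each), the markers, Zfp36l1 and Zfp36l2. The values of 2 list members are not reported here. Scripts ran in Python 3.11.15 with scipy 1.17.1, numpy 2.4.6, matplotlib 3.10.9 and pandas 2.3.3.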

Additional observations from a re-analysis of the deposited data

How the results depend on the processing

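When counts were scaled to the model length, Dnmt3b over Dnmt3a was 8.07, Dnmt1 over the summed de novo enzymes 0.389, Tet1 over Tet2 3.36, Tet1 over Tet3 10.9, the summed methyltransferases over the summed Tet genes 7.16, and Tdg over Dnmt1 0.966, which turned that order round. The cause of the change in effective length was not tested. The other ratios kept their direction. Estimated and unique counts gave the same values, being equal to the total counts. All 8 members stayed at or above 1 FPKM on the model length and had at least 10 counts. The medians of the members (57.8), the methyltransferase partners (81.7) and the Tet partners (39.3) moved by over 1.5 times on the model length. Motif counts were the same in the longest annotated region. No paired analysis was possible because no column can be tied to a library or its replicate number. Without libraries, the fits between Brf precipitate and IgG, with other normalization and leaving out each library, were not run, and Uhrf1 over Uhrf2 has no value. Precision was lowest for Tet3, where 707 counts gave bounds of 7.52% either side.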
